A study of Mus musculus with 12 samples.

Results

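NRF2, the transcription factor encoded by *Nfe2l2*, and 9 genes around it were followed through 12 RNA-seq libraries of AML12 cells. The 10 genes were chosen by name: *Nfe2l2* and its inhibitor *Keap1*, and the oxidative stress targets *Hmox1*, *Gclm*, *Gclc*, *Nqo1*, *Txnrd1*, *Srxn1*, *Slc7a11* and *Osgin1*. They were chosen with earlier results of these data known, so counts set against all genes describe them and are no independent test. All 10 were among the 24824 genes of the table, and all 10 were among the 10615 genes with a mean of at least 1 FPKM that were tested. AML12 is an established mouse hepatocyte line, derived from mice carrying a human TGF-α transgene and labelled wild type here. All 4 groups were cultured for 24 h with 3 libraries each. Group A received standard growth medium, and no vehicle is named in the sources used here. Group B received copper chloride (CuCl2) at 300 μM together with the copper ionophore elesclomol (ES) at 40 nM, a combination abbreviated Cu/ES. Group C received the same Cu/ES combination plus taurocholic acid (TCA), a conjugated bile acid, at 1000 μM. Group D received TCA at 1000 μM alone. Values are FPKM, fragments per kilobase of transcript scaled to the size of the library, as deposited by the authors.

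KEAP1 is the adaptor that presents NRF2 to a CUL3 ubiquitin ligase, which keeps NRF2 protein low in unstressed cells. Oxidants and electrophiles modify cysteines of KEAP1, NRF2 then escapes degradation, enters the nucleus and binds antioxidant response elements (AREs) as a dimer with a small MAF protein. Its known targets make and use glutathione, run the thioredoxin system, reduce quinones and degrade haem, and in hepatocytes they are part of the defence against reactive drugs, metals and bile acids. Because NRF2 is controlled largely as a protein, mRNA levels of *Nfe2l2* do not measure its activity.

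The labelled cell type was checked against marker genes. *Alb*, *Apob* and *Hnf4a*, which define mature hepatocytes, were listed at 0 in the group A means, whereas the epithelial keratins *Krt8* and *Krt18* stood at 344 and 285 FPKM. *Krt19* (268 FPKM), *Spp1* (673 FPKM) and *Vim* (2080 FPKM), which are usually low in mature hepatocytes, were high in group A. Summed levels of the marker lists differed between the groups. The summed FPKM of 7 mesenchymal markers was 2120 to 2340 in group A, 1810 to 1940 in D, 298 to 354 in B and 154 to 196 in C, and that of 7 biliary markers was 920 to 1000, 743 to 790, 1240 to 1410 and 739 to 953 in the same order. The sum of 8 hepatocyte markers, nearly all of it keratins, was 597 to 650 in group A, 698 to 718 in D, 236 to 288 in B and 173 to 209 in C. That of 6 macrophage markers was 79.4 to 108 in group A and 25.2 to 45.2 in the other groups, most of it *Cd68*, while *Ptprc* and *Adgre1* stayed below 0.1 FPKM in every group mean. The summed FPKM of 6 endothelial markers was 0.922 to 1.16 in group A and 0.865 to 1.25 in group D, but 6.83 to 10.5 with Cu/ES and 16.8 to 19.8 with Cu/ES plus TCA, most of it *Pecam1*, while *Lyve1* was at or near 0 throughout. Their part in the results was not tested. Read totals recovered from the spacing of the values ran from 29115011 to 39782142 per library and were lower in groups B and C than in A and D. Groups B and C had 8458 to 8711 genes at 1 FPKM or more, against 10570 to 10893 in groups A and D. With Cu/ES the median log2 fold change over all genes tested was -1.10 (group B vs. A) and -1.13 (group C vs. D), and this shift is set beside the changes below that lie near it. When libraries were instead scaled by median ratios, these medians became -0.03 and -0.11, and the calls of group B vs. A went from 2138 higher and 7639 lower to 4539 higher and 4781 lower. The factors were 1.54 to 1.61 in groups A and D and 0.617 to 0.672 in B and C. FPKM are relative to the total of a library and hold no measure of cell number or of RNA per cell, which cannot be told apart here.

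Because AREs are where NRF2 acts, the promoter windows of the genes were read for the ARE core. RefSeq promoter windows, 250 bases before to 50 after a transcription start on GRCm38.p6, were matched by symbol for 8 of the 10 genes, not for *Hmox1* and *Gclc*. The letters TGACNNNGC or TGAGNNNGC occurred on either strand in 27.8% of all 32851 windows, and in at least 1 window of 30.8% of the 27025 genes with windows. They occurred in windows of 6 of the 8 genes (*Nfe2l2*, *Srxn1*, *Slc7a11*, *Gclm*, *Osgin1* and *Txnrd1*) and not in those of *Nqo1* and *Keap1*. The matches upstream of the start are shown for the 5 target genes, each read 5′ to 3′ along the gene's own strand with the match in capitals.
Srxn1, start 45 bases upstream: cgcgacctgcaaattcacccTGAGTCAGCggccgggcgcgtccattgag
Srxn1, start 158 bases upstream: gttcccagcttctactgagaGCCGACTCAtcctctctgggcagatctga
Osgin1: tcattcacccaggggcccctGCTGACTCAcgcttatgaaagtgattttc
Gclm: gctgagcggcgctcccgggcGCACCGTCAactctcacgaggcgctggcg
Txnrd1: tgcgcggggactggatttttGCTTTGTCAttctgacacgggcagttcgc
Slc7a11: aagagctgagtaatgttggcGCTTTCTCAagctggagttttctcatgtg
The *Srxn1* sequences lie at chr2:152105459-152105507 and chr2:152105346-152105394 (plus strand), that of *Osgin1* at chr8:119437028-119437076 (plus), that of *Gclm* at chr3:122245403-122245451 (plus), that of *Txnrd1* at chr10:82859094-82859142 (plus) and that of *Slc7a11* at chr3:50443682-50443730 (minus). The nearer *Srxn1* match and the *Osgin1* match hold the same 9 letters, TGAGTCAGC, on opposite strands. A core of the metal response element (TGCACNC or TGCGCNC, either strand), to which the metal-sensing factor MTF1 binds, occurred in 25.7% of all windows. By gene, it occurred for 28.2% of all genes with windows and for 2 of the 8 genes, *Srxn1* and *Gclm*, where 1 match overlapped the ARE core of *Gclm*. These matches describe letters in a window, and no binding was measured.

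**Figure D1:**
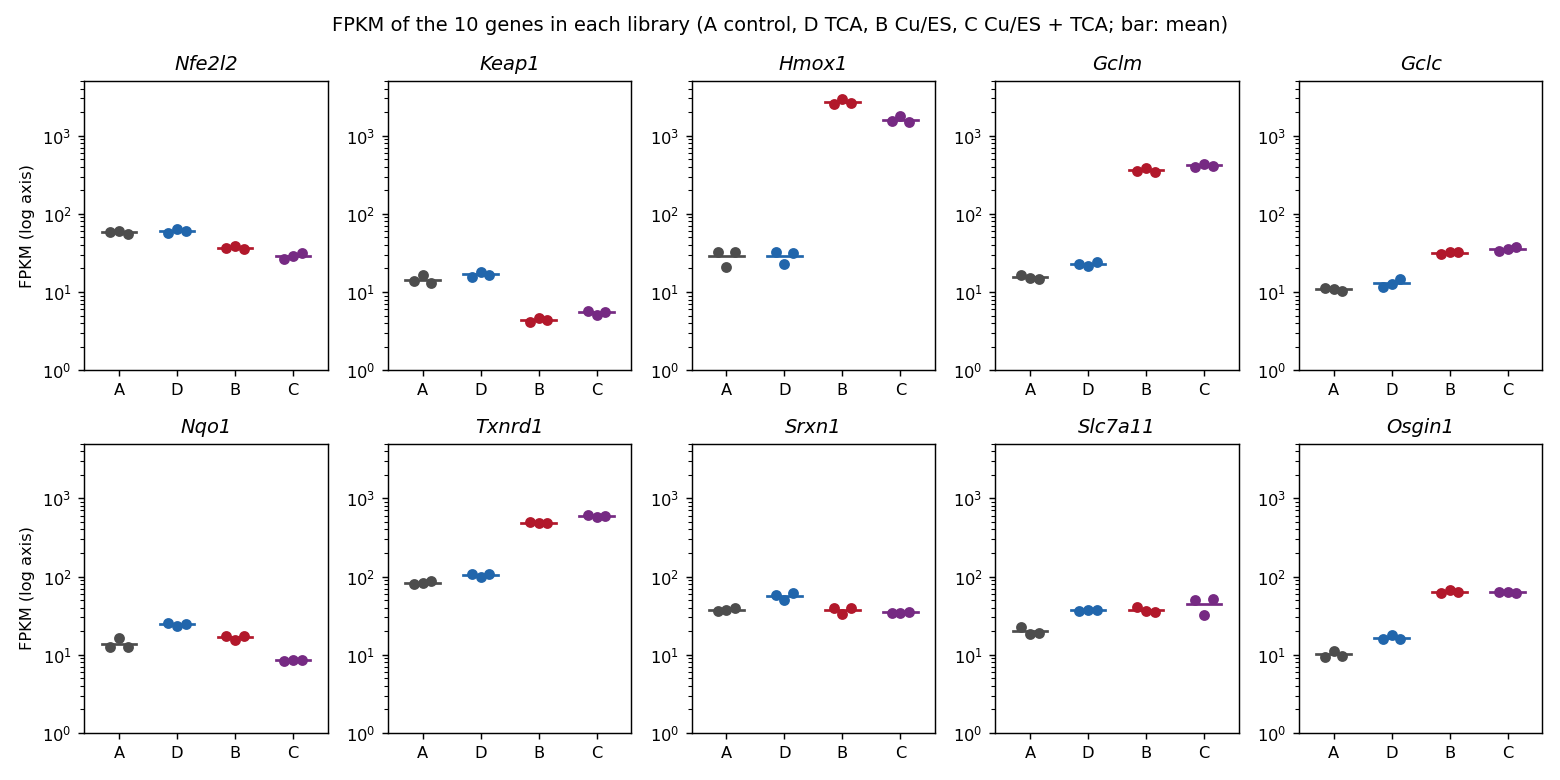
FPKM of the 10 genes in each of the 12 libraries on a log axis, in the order group A, D, B, C, with points for libraries and a bar for the group mean. *Hmox1* went from 21.1 to 32.5 FPKM in group A to 2538 to 2954 FPKM in group B, whereas *Srxn1* was highest in group D.

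The first question was how Cu/ES changed these genes (group B vs. A). Of the 10 genes, 7 rose and 2 fell at an adjusted p under 0.05 (limma, Benjamini-Hochberg adjustment over all genes tested), against 20.1% of all genes tested that rose and 72.0% that fell. With a log2 fold change beyond 1 also required, 5 rose (*Hmox1*, *Gclm*, *Txnrd1*, *Osgin1* and *Gclc*) and 1 fell (*Keap1*), against 10.1% and 53.0% of all genes tested. The median log2 fold change of the 10 genes was 1.17, against -1.10 over all genes tested.

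*Hmox1* encodes haem oxygenase 1, which opens the haem ring to biliverdin, carbon monoxide and iron. It measured 32.5, 21.1 and 32.2 FPKM in the group A libraries and 2538, 2954 and 2587 FPKM in the group B libraries. All group B libraries lay far above all group A libraries, a 94.1-fold difference of mean FPKM. The log2 fold change of FPKM + 1 was 6.53 ± 0.15 (SE; adjusted p = 1.17e-13), the ninth highest of the 10615 genes tested. *Hmox1* alone took 0.400% to 0.466% of the recovered reads of a group B library.

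*Gclm* and *Gclc* encode the modifier and the catalytic subunit of glutamate-cysteine ligase, the rate-limiting enzyme of glutathione synthesis. *Gclm* measured 16.5, 15.03 and 14.8 FPKM in group A and 352, 386 and 348 FPKM in group B (log2 fold change 4.46 ± 0.07, adjusted p = 6.92e-15). *Gclc* measured 11.4, 10.9 and 10.4 FPKM in group A and 30.9, 32.7 and 32.4 FPKM in group B (log2 fold change 1.47 ± 0.08, adjusted p = 2.41e-10). Both subunits rose without overlap of the groups, the modifier subunit by a 23.4-fold and the catalytic subunit by a 2.94-fold difference of mean FPKM.

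*Txnrd1*, the cytosolic thioredoxin reductase, measured 80.5, 81.6 and 87.1 FPKM in group A and 500.4, 485 and 478 FPKM in group B (log2 fold change 2.54 ± 0.06, adjusted p = 6.88e-14). *Osgin1*, an oxidative stress-induced growth inhibitor, measured 9.30, 11.2 and 9.73 FPKM in group A and 61.5, 67.2 and 63.7 FPKM in group B (log2 fold change 2.56 ± 0.08, adjusted p = 5.89e-13). Both rose to a similar degree, with every group B library above every group A library. RefSeq places *Eid3* within *Txnrd1*, and the strand setting of the counting is not stated. *Eid3* itself moved from 1.23 ± 0.26 to 21.8 ± 1.05 FPKM (SD, n = 3), a small part of the level of *Txnrd1*.

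*Slc7a11* encodes the cystine-importing subunit of system xc−, which brings in the cystine from which glutathione is made. It measured 22.7, 18.7 and 19.0 FPKM in group A and 40.8, 36.5 and 35.6 FPKM in group B, without overlap (log2 fold change 0.87 ± 0.14, adjusted p = 3.46e-05). *Nqo1*, the NAD(P)H quinone dehydrogenase often used as a readout of NRF2, measured 12.6, 16.3 and 12.7 FPKM in group A and 17.3, 15.3 and 17.3 FPKM in group B. The groups overlapped, and its log2 fold change of 0.25 ± 0.09 (adjusted p = 0.0181) no longer passed when library 1 or 3 of group A or library 1 or 3 of group B was left out (adjusted p = 0.0603 to 0.0844). *Srxn1*, the sulfiredoxin that restores over-oxidised peroxiredoxins, measured 36.0, 36.9 and 39.3 FPKM in group A and 39.9, 33.5 and 39.1 FPKM in group B. Its groups overlapped and its log2 fold change was 0.00 (95% confidence interval -0.18 to 0.18, adjusted p = 0.991), which lay 1.10 above the median of all genes. With median-ratio scaling it passed at 1.25 (adjusted p = 7.33e-09), and with quantile normalization at 0.40 (adjusted p = 0.000371).

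*Nfe2l2* and *Keap1* did not follow the targets. *Nfe2l2* measured 58.0, 60.1 and 55.8 FPKM in group A and 36.1, 38.6 and 35.9 FPKM in group B, a log2 fold change of -0.64 ± 0.07 (adjusted p = 1.18e-06). *Keap1* measured 13.7, 16.5 and 12.9 FPKM in group A and 4.09, 4.64 and 4.37 FPKM in group B, a log2 fold change of -1.51 ± 0.09 (adjusted p = 9.90e-10). Both were lower in every group B library. Against the median of all genes *Nfe2l2* stood 0.46 higher and *Keap1* fell by 0.41, and the sign of *Nfe2l2* depended on scaling, since with median-ratio scaling it was 0.62 higher in group B. When libraries were rescaled to TPM, *Srxn1* was lower in group B (-0.37, adjusted p = 0.00105), and *Nqo1* did not pass (-0.10, adjusted p = 0.355). *Hmox1*, *Gclm*, *Gclc*, *Txnrd1*, *Osgin1* and *Slc7a11* were higher and *Keap1* lower under median-ratio, quantile and TPM scaling.

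Group C vs. D asked the same of Cu/ES with TCA present in both groups, and used none of the libraries of group B vs. A. Here 5 of the 10 genes rose and 4 fell, against 20.9% and 71.5% of all genes tested. With the fold change threshold, the same 5 genes as in group B vs. A rose (*Hmox1*, *Gclm*, *Txnrd1*, *Osgin1* and *Gclc*) and 3 fell (*Keap1*, *Nqo1* and *Nfe2l2*), against 11.2% and 53.3%. *Hmox1* measured 32.6, 23.1 and 31.7 FPKM in group D and 1528, 1767 and 1515 FPKM in group C (log2 fold change 5.75 ± 0.15, adjusted p = 2.11e-13). *Gclm* measured 23.0, 21.4 and 24.0 FPKM in group D and 398, 440.1 and 409 FPKM in group C (log2 fold change 4.13 ± 0.07, adjusted p = 1.51e-14). Both genes again separated the groups without overlap. *Txnrd1* (2.49 ± 0.06), *Osgin1* (1.87 ± 0.08) and *Gclc* (1.39 ± 0.08) were the other genes that rose on the log2 scale.

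*Nqo1* fell in this comparison. It measured 25.4, 23.2 and 24.8 FPKM in group D and 8.27, 8.66 and 8.60 FPKM in group C, a log2 fold change of -1.42 ± 0.09 (adjusted p = 1.61e-09), and every group C library was below every group D library. *Srxn1* measured 58.9, 50.6 and 61.1 FPKM in group D and 34.6, 34.2 and 35.3 FPKM in group C (log2 fold change -0.69 ± 0.08, adjusted p = 1.54e-06), also without overlap. *Nfe2l2* measured 56.4, 64.0 and 61.2 FPKM in group D and 26.3, 28.9 and 31.5 FPKM in group C (log2 fold change -1.04 ± 0.07, adjusted p = 4.38e-09). Much of these decreases was shared by the genes tested: against the median of -1.13, *Nfe2l2* stood 0.08 and *Srxn1* 0.43 higher, *Nqo1* fell by 0.29 and *Keap1* by 0.33. With median-ratio scaling *Srxn1* (0.54) and *Nfe2l2* (0.18) were instead higher in group C, and *Nqo1* remained lower (-0.24). *Slc7a11* did not pass (log2 fold change 0.23 ± 0.14, adjusted p = 0.130), with group C libraries at 50.2, 32.2 and 51.5 FPKM and group D libraries at 36.2, 37.3 and 37.7 FPKM. Without the low library, group C replicate 2, its log2 fold change was 0.44 (adjusted p = 0.00021), and it passed at 1.46 with median-ratio scaling and 0.69 with quantile normalization.

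**Figure D2:**
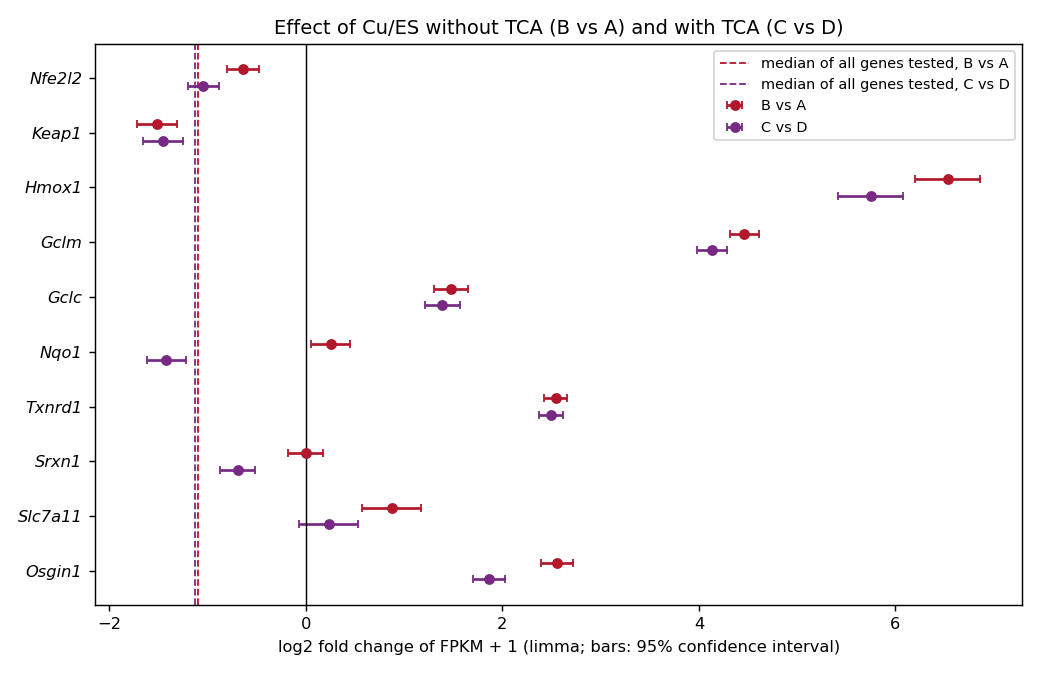
Log2 fold changes of the 10 genes for Cu/ES without TCA (group B vs. A) and with TCA (group C vs. D), with 95% confidence intervals from limma and dashed lines at the median of all genes tested (-1.10 and -1.13). *Hmox1*, *Gclm*, *Txnrd1*, *Osgin1* and *Gclc* lie above 1 in both. With median-ratio scaling *Nfe2l2* changes sign in both and *Srxn1* in C vs. D. As TPM, *Nqo1* and *Srxn1* change sign in B vs. A and *Slc7a11* in C vs. D.

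TCA without Cu/ES (group D vs. A) gave small changes in one direction. Of the 10 genes, 6 rose (*Slc7a11*, *Nqo1*, *Osgin1*, *Srxn1*, *Gclm* and *Txnrd1*), against 10.5% of all genes tested. None fell, against 11.5% of all genes tested; by limma 0 members fell at an unadjusted p under 0.05, and 0 by limma-voom on the recovered reads. No member had a log2 fold change beyond 1, and only 0.0659% of all genes tested rose and 0.151% fell past both thresholds. The median of the 10 genes was 0.43, against -0.01 over all genes tested.

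*Slc7a11* measured 36.2, 37.3 and 37.7 FPKM in group D against 18.7 to 22.7 FPKM in group A (log2 fold change 0.85 ± 0.14, adjusted p = 0.00117), the 16th highest of 10615 genes. *Nqo1* measured 25.4, 23.2 and 24.8 FPKM against 12.6 to 16.3 FPKM (log2 fold change 0.78 ± 0.09, adjusted p = 0.000163) and ranked 31st. *Osgin1* measured 16.0, 17.8 and 15.7 FPKM against 9.30 to 11.2 FPKM (log2 fold change 0.66 ± 0.08, adjusted p = 0.000143) and ranked 76th. In each case every group D library was above every group A library. *Srxn1* measured 58.9, 50.6 and 61.1 FPKM against 36.0 to 39.3 FPKM (log2 fold change 0.59 ± 0.08, adjusted p = 0.000458). *Gclm* (0.53 ± 0.07) and *Txnrd1* (0.33 ± 0.06) rose by less on the log2 scale, and neither overlapped between groups.

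The members that did not pass in group D vs. A included both regulators. *Nfe2l2* measured 56.4, 64.0 and 61.2 FPKM in group D, overlapping group A, with a log2 fold change of 0.06 (95% confidence interval -0.10 to 0.22). *Keap1* had a log2 fold change of 0.21 (adjusted p = 0.121), and passed when group A replicate 2 was left out (0.31, adjusted p = 0.0317). *Hmox1*, the one of the 10 genes that Cu/ES moved most, had a log2 fold change of 0.03 (95% confidence interval -0.30 to 0.37), with 3 libraries at 32.6, 23.1 and 31.7 FPKM against 32.5, 21.1 and 32.2 FPKM. *Gclc* had a log2 fold change of 0.22 (adjusted p = 0.0640), and passed without group D replicate 1 (0.30, adjusted p = 0.0286) and with quantile normalization (0.28, adjusted p = 0.0256) or median-ratio scaling (0.25, adjusted p = 0.0499).

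**Figure D3:**
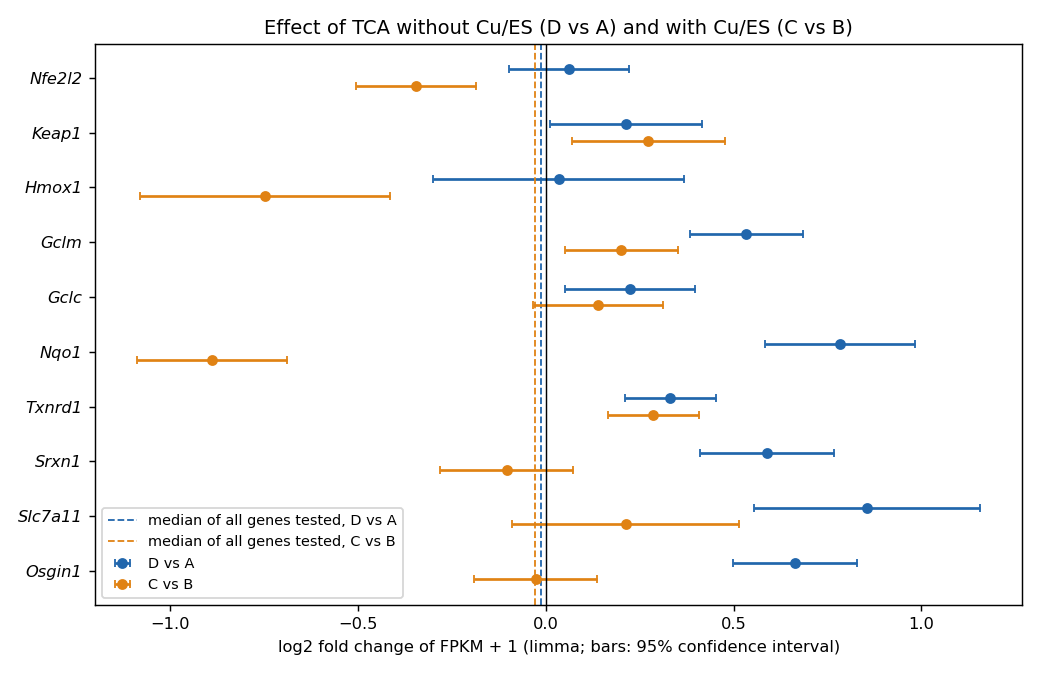
Log2 fold changes of the 10 genes for TCA without Cu/ES (group D vs. A) and with Cu/ES (group C vs. B), with 95% confidence intervals from limma and dashed lines at the median of all genes tested. *Nqo1* lies at 0.78 without Cu/ES and at -0.89 with it, whereas *Txnrd1* lies at 0.33 and 0.29.

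With TCA given together with Cu/ES (group C vs. B), 3 of the 10 genes rose (*Txnrd1*, *Keap1* and *Gclm*) and 3 fell (*Nqo1*, *Hmox1* and *Nfe2l2*), against 20.4% and 23.6% of all genes tested. *Nqo1* measured 17.3, 15.3 and 17.3 FPKM with Cu/ES and 8.27, 8.66 and 8.60 FPKM with Cu/ES plus TCA (log2 fold change -0.89 ± 0.09, adjusted p = 7.90e-06). *Hmox1* fell from 2538, 2954 and 2587 FPKM to 1528, 1767 and 1515 FPKM (log2 fold change -0.75 ± 0.15, adjusted p = 0.00149), a level that still exceeded every library without Cu/ES. *Nfe2l2* fell from between 35.9 and 38.6 FPKM to between 26.3 and 31.5 FPKM (log2 fold change -0.34 ± 0.07, adjusted p = 0.00195). The groups did not overlap for these 3 genes, nor for *Keap1*, *Gclm*, *Txnrd1* and *Gclc*, of which *Gclc* did not pass (adjusted p = 0.185). The share of all genes without overlap was not computed, so the lack of overlap says nothing about the 10 genes as a set.

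*Txnrd1* rose from 500.4, 485 and 478 FPKM to 605, 580.1 and 600.0 FPKM (log2 fold change 0.29 ± 0.06, adjusted p = 0.00108). *Gclm* (0.20 ± 0.07, adjusted p = 0.0307) and *Keap1* (0.27 ± 0.09, adjusted p = 0.0305) passed narrowly. *Gclm* no longer passed without replicate 1 or 3 of group B or replicate 2 or 3 of group C (adjusted p = 0.0592 to 0.108), and *Keap1* without replicate 1 or 3 of group B or of group C (adjusted p = 0.0656 to 0.101). *Keap1* also missed the threshold with no filter, with quantile normalization, with limma-voom and, like *Gclm*, with only the groups compared (adjusted p = 0.0556 to 0.0675). *Osgin1* (-0.03, 95% confidence interval -0.19 to 0.14), *Srxn1* (-0.10, -0.28 to 0.07) and *Gclc* (0.14, -0.04 to 0.31) did not pass. *Slc7a11* did not pass either (0.21 ± 0.14, adjusted p = 0.244), but without group C replicate 2 its log2 fold change was 0.43 (adjusted p = 0.0011).

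The interaction term, the log2 effect of TCA with Cu/ES minus that without, tested whether these effects differed. It was below 0 and passed for 7 of the 10 genes, against 19.8% of all genes tested, and above 0 for none, against 17.7%; by limma 0 members were above 0 at an unadjusted p under 0.05, and 0 by limma-voom on the recovered reads. *Nqo1* had the strongest term, -1.67 ± 0.13 (adjusted p = 5.08e-06), the eighth lowest of 10615 genes. *Hmox1* (-0.78 ± 0.22), *Srxn1* (-0.69 ± 0.12), *Osgin1* (-0.69 ± 0.11), *Slc7a11* (-0.64 ± 0.20), *Nfe2l2* (-0.41 ± 0.10) and *Gclm* (-0.33 ± 0.10) followed. *Txnrd1* (-0.05, 95% confidence interval -0.22 to 0.13), *Gclc* (-0.09, -0.33 to 0.16) and *Keap1* (0.06, -0.23 to 0.35) did not pass. *Osgin1*, *Srxn1* and *Nqo1* passed under all 21 alternative settings. The term of *Slc7a11* did not pass without group B replicate 1 (-0.59, adjusted p = 0.0516), and with TPM 4 of the 10 genes passed. *Nfe2l2* and *Hmox1* missed the threshold with quantile normalization (adjusted p = 0.0568 and 0.0864), as did *Hmox1* and *Slc7a11* with no filter (adjusted p = 0.0617 and 0.0805).

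A ratio of 2 genes within a library is not changed by a factor applied to the whole library. The ratio of *Gclm* to *Gclc*, the modifier to the catalytic subunit, was 1.42 ± 0.03 in untreated cells, 1.78 ± 0.20 with TCA, 11.3 ± 0.53 with Cu/ES and 11.8 ± 0.77 with both (SD, n = 3). The groups with Cu/ES did not overlap those without, and D did not overlap A (exact permutation test, two-sided p = 0.1 for group B vs. A, C vs. D and D vs. A). Groups B and C overlapped (exact permutation p = 0.4). The ratio of *Nfe2l2* to *Keap1* was 4.06 ± 0.38 in untreated cells, 3.61 ± 0.04 with TCA, 8.45 ± 0.34 with Cu/ES and 5.28 ± 0.64 with both. It was higher in all group B libraries than in any other library (exact permutation p = 0.1 for group B vs. A and C vs. B), higher in group C than in D (exact permutation p = 0.1), and overlapped between D and A (exact permutation p = 0.2). With 3 libraries against 3, 0.1 is the smallest p this test allows, so none can pass 0.05. Quantile normalization, which does change ratios within a library, turned the log2 difference of the *Nfe2l2* to *Keap1* ratio from 1.061 to -0.07 for group B vs. A and from 0.54 to -0.35 for C vs. D, and left that of *Gclm* to *Gclc* at 2.39 and 2.12 (2.99 and 2.73 as deposited).

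**Figure D4:**
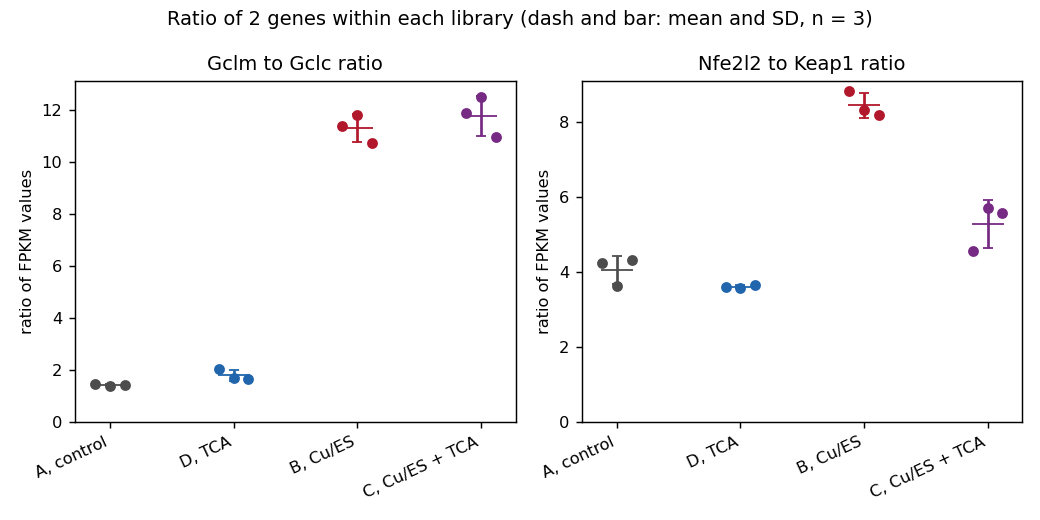
Ratios of FPKM values within each library, *Gclm* to *Gclc* on the left and *Nfe2l2* to *Keap1* on the right, with points for libraries and a dash and bar for mean and SD (n = 3). The first ratio is 1.42 and 1.78 without Cu/ES and 11.3 and 11.8 with it; the second is 8.45 in group B and 5.28 in group C, and its differences for Cu/ES change sign with quantile normalization.

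Beyond the 10 genes, 80 other genes of the pathway were listed, of which 79 were in the table and 63 were tested. With Cu/ES alone (group B vs. A), 18 of the 63 rose and 20 fell past both thresholds, against 10.1% and 53.0% of all genes tested, and the median log2 fold change of the 63 was -0.48. The 18 include *Gsta1* and *Gsta2*, which were tested only because they were high with Cu/ES. With median-ratio scaling these counts were 28 and 5, against 25.9% and 25.5% of all genes tested. The haem and iron list had the highest median, 1.16, and the quinone and xenobiotic list the lowest, -0.83. The median of all genes tested was -1.10, below that of each of the 6 lists. With Cu/ES alone, the listed genes named below as falling had log2 fold changes of -1.63 (*Txnrd3*) to -3.30 (*Idh1*), beside that median. Only 5 listed genes fell past both thresholds with median-ratio scaling, so most of these falls did not pass there.

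Among regulators of NRF2, 3 of 14 tested genes rose past both thresholds in group B vs. A and 2 fell, against 10.1% and 53.0% of all genes tested. *Mafk*, which encodes a small MAF partner of NRF2, averaged 4.71 ± 0.24 FPKM in untreated cells, 7.23 ± 0.39 with TCA, 111 ± 3.55 with Cu/ES and 171 ± 5.08 with Cu/ES plus TCA (SD, n = 3). It rose in group B vs. A (4.29 ± 0.06 log2), in C vs. B (0.62 ± 0.06) and in D vs. A (0.53 ± 0.06). *Maff*, another small MAF gene, rose from 31.7 ± 4.23 to 242 ± 6.27 FPKM in group B. *Nfe2l1*, which encodes the related factor NRF1, fell from 120.0 ± 2.08 to 26.1 ± 0.96 FPKM, and *Dpp3*, whose product binds KEAP1, fell from 30.9 ± 1.49 to 8.50 ± 1.25 FPKM.

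Of 18 glutathione genes tested, 3 rose and 4 fell past both thresholds in group B vs. A, against 10.1% and 53.0% of all genes tested. *Gsta1* and *Gsta2*, alpha-class glutathione transferases, rose from 0.198 ± 0.18 to 21.6 ± 5.0 FPKM and from 0.220 ± 0.13 to 5.66 ± 0.95 FPKM. Both averaged under 1 FPKM in groups A and D, so they were tested only because they were high with Cu/ES. This held for 2 of the 63 listed genes tested. Their rise followed from the filter, yet they are 2 of the 3 glutathione genes counted as rising. They are also among the 18 (group B vs. A) and 13 (C vs. D) listed genes that rose past both thresholds. They are near-identical paralogs, so the split of reads between them is uncertain. *Mgst3*, a microsomal transferase, fell from 18.9 ± 2.82 to 1.68 ± 0.72 FPKM, and *Gstm5*, a mu-class transferase, from 25.3 ± 2.49 to 6.59 ± 1.15 FPKM.

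Of the 8 thioredoxin genes, 4 rose and 4 fell past both thresholds, against 10.1% and 53.0% of all genes tested. *Prdx1*, a cytosolic peroxiredoxin, rose from 299 ± 18.3 to 2210 ± 151 FPKM, and *Sesn2*, a stress-induced sestrin, from 29.5 ± 1.61 to 137 ± 9.21 FPKM. *Prdx3*, the mitochondrial peroxiredoxin, fell from 50.2 ± 0.54 to 10.5 ± 2.07 FPKM, and *Txnrd3* from 4.38 ± 0.87 to 0.730 ± 0.18 FPKM. Of the 6 NADPH genes, 2 rose and 3 fell, against the same shares of all genes tested. *Taldo1*, transaldolase of the pentose phosphate pathway, rose from 78.2 ± 4.16 to 407 ± 8.67 FPKM and *Me1*, malic enzyme, from 19.98 ± 1.89 to 47.3 ± 0.61 FPKM. *G6pdx*, the entry enzyme of the same pathway, fell from 63.6 ± 1.73 to 14.2 ± 1.18 FPKM and *Idh1*, cytosolic isocitrate dehydrogenase, from 30.7 ± 6.68 to 2.21 ± 0.45 FPKM.

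Of 10 quinone and xenobiotic genes tested, 2 rose and 4 fell past both thresholds, against 10.1% and 53.0% of all genes tested. *Akr1b3*, an aldose reductase, rose from 38.6 ± 3.93 to 94.5 ± 3.79 FPKM and *Ptgr1*, a reductase of prostaglandins and alkenals, from 9.66 ± 0.65 to 22.3 ± 2.99 FPKM, whereas *Nqo2* fell from 14.0 ± 1.82 to 1.16 ± 0.13 FPKM and *Cbr3*, a carbonyl reductase, from 3.26 ± 0.85 to 0.263 ± 0.07 FPKM. Of 7 haem and iron genes tested, 4 rose and 3 fell, against the same shares of all genes tested. *Blvrb*, a biliverdin reductase downstream of haem oxygenase, rose from 47.6 ± 1.55 to 328 ± 21.0 FPKM and *Ftl1*, ferritin light chain, from 2283 ± 135 to 6928 ± 1079 FPKM. *Blvra*, the other biliverdin reductase, fell from 17.2 ± 1.07 to 1.97 ± 0.09 FPKM and *Fech*, the enzyme that puts iron into haem, from 19.7 ± 2.48 to 4.73 ± 0.16 FPKM. *Prdx1* and *Ftl1* belong to families with near-identical copies elsewhere in the genome, which makes their levels uncertain.

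TCA alone (group D vs. A) raised 14 of the 63 listed genes and lowered 8 at an adjusted p under 0.05, against 10.5% and 11.5% of all genes tested. Leaving out 1 library moved these counts to between 8 and 18 higher and between 2 and 10 lower. Without group D replicate 1, 8 rose, and without D replicate 3, 9 rose. Calls over all genes dropped as well, from 1114 of 10615 higher to 716 of 10591 and 686 of 10590. The number of listed genes that fell was at most 5 without any 1 library of groups A or D, or without replicate 1 or 3 of group B. In those settings 710 to 1194 of all genes tested fell, against 1225 with all libraries. With median-ratio scaling 2 fell, against 6.56% of all genes tested. By list, 6 rose and 3 fell of 18 glutathione genes (median -0.05), 4 rose and 0 fell of 14 regulators (median 0.02), and 0 rose and 3 fell of 10 quinone and xenobiotic genes (median -0.21). Differences between lists were not tested. *Gstm5* (-0.42 ± 0.11 log2), *Ftl1* (-0.41 ± 0.12) and *Blvra* (-0.38 ± 0.12) were among the 8 that fell. Named after their values were seen, *Pgd* (0.63 log2) of the pentose phosphate pathway, *Chac1* (0.77), which degrades glutathione, and *Slc3a2* (0.48), the heavy chain that pairs with the *Slc7a11* product, were among the genes that rose. With TCA given together with Cu/ES (group C vs. B), 9 of the 63 rose and 31 fell, against 20.4% and 23.6% of all genes tested, and their median was -0.25 on the log2 scale, compared with -0.03 over all genes tested. *Mgst3* (-1.14 ± 0.18) and *Gstm5* (-0.88 ± 0.11) were among those that fell. With Cu/ES in the presence of TCA (group C vs. D), 13 rose and 28 fell past both thresholds, against 11.2% and 53.3%, and with median-ratio scaling the counts were 27 and 9, against 25.9% and 27.2%.

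**Figure D5:**
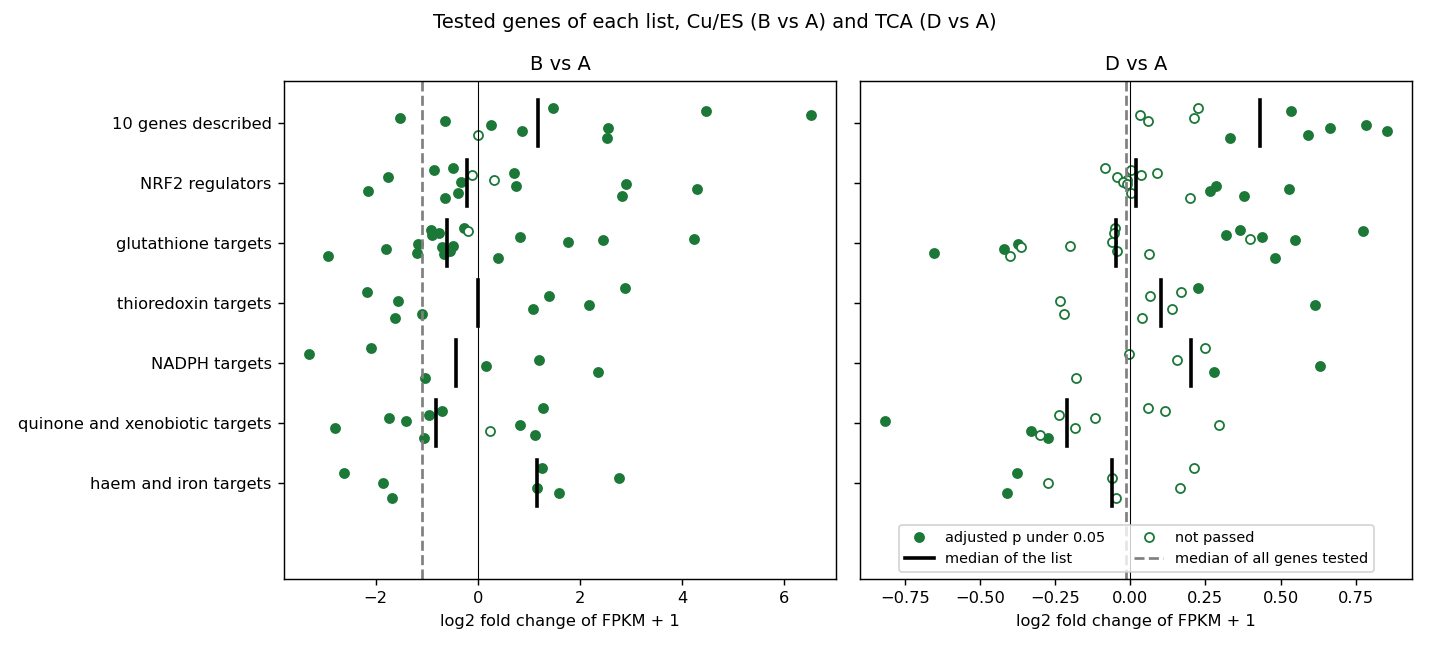
Log2 fold changes of the tested genes of each list for group B vs. A (left) and D vs. A (right), filled where the adjusted p was under 0.05, with a black bar at the list's median and a dashed line at the median of all genes tested. The 10 genes described have medians of 1.17 and 0.43; on the left, median-ratio scaling moves the median of all genes from -1.10 to -0.03 and reverses the sign of *Nfe2l2*.

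For each gene the tested gene with the most similar pattern was found, by Euclidean distance over the 12 libraries of log2(FPKM + 1) minus the group A mean. *Gclm* was nearest to *Mafk* (distance 0.61), which is itself a listed regulator. *Hmox1* was nearest to *Dnajb1* (1.03), which encodes an HSP40 chaperone and averaged 12.8 FPKM in group A and 1622 FPKM in group B. *Nqo1* was nearest to *Bop1* (0.50), a ribosome biogenesis gene, *Osgin1* to *Ccdc86* (0.35), *Slc7a11* to *Abcf2* (0.50) and *Txnrd1* to *Psmd13* (0.42), a proteasome subunit gene. *Nfe2l2* was nearest to *Ctcf* (0.27), *Keap1* to *Sptlc2* (0.21), *Gclc* to *Mtdh* (0.33) and *Srxn1* to *Atf6b* (0.27).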

How the data were processed

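Poly(A) RNA of AML12 cells was extracted with TRIzol, and made into libraries with the VAHTS Universal V6 kit. The submitters' processing notes name fastp, HISAT2, HTSeq and the GRCm39 build, without versions. The deposited table holds FPKM for 24824 genes in 12 libraries, computed by the authors from gene counts. Read totals and whole reads per gene were recomputed from the steps between the deposited values for 22210 of 22212 genes (within 0.05 reads); the 10 genes had 579 to 148999 reads per library. These FPKM are not counts, so the count test of the study was replaced by limma 3.58.1 (R 4.3.3) on log2(FPKM + 1), which understates changes of low genes. Genes with a mean of at least 1 FPKM were fitted with the 4 groups as terms over 12 libraries (8 residual degrees of freedom, variance trend), and p-values were adjusted by Benjamini-Hochberg over the 10615 genes. Calls required an adjusted p under 0.05 and, for the second rule, a log2 fold change beyond 1. Ratios were compared by exact permutation tests (scipy 1.17.1). The script was tested on simulated data. The labels do not say whether libraries came from separate cultures, so p-values measure the spread between these libraries. Replicate numbers were checked for pairing: same-numbered libraries of groups A and B had deviations correlated at 0.142 to 0.174 over genes, above the limit of 0.1 in every pair, and no other comparison passed that limit in every pair. Named genes were the 10 members, the 2 highest and 2 lowest past the threshold of each other list in group B vs. A, and the nearest gene to each member; *Pgd*, *Chac1*, *Slc3a2* and the markers and overlapping gene given were named outside this rule. The members and lists were chosen with earlier results of these data known. *Nfe2l3* and some markers (*Ttr*, *Serpina1a*, *Tf*, *Clec4f*, *Lrat*) were not analysed here. Alternatives comprised a pseudocount of 0.1, no filter or a mean of 5 FPKM, TPM, median-ratio and quantile scaling, a replicate block, no variance trend, only the groups compared, limma-voom on recovered reads, and each library left out.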

Additional observations from a re-analysis of the deposited data

Results flagged for a closer look

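The log2 effect of TCA with Cu/ES (group C vs. B) differed from its effect without Cu/ES (group D vs. A) for 7 of the 10 genes by the interaction term of the limma fit. In each the effect was lower with Cu/ES, which held for 19.8% of all genes tested. With TPM 4 of the 10 passed, against 14.9% of all genes tested. Only *Nqo1*, *Srxn1* and *Osgin1* of the 7 passed under all 21 alternative settings. *Nqo1* stood apart with -1.67, its effect being 0.78 without Cu/ES and -0.89 with it, and it is the only one of the 10 genes with calls in opposite directions. The difference was -0.78 for *Hmox1*, whose call was confined to the libraries with Cu/ES. It was -0.69 for *Srxn1*, -0.69 for *Osgin1* and -0.64 for *Slc7a11*, which rose with TCA alone and did not pass with Cu/ES. It was -0.41 for *Nfe2l2*, which fell only with Cu/ES, and -0.33 for *Gclm*, which rose in both.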

How the results depend on the processing

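The 50 log2 fold changes of the 10 genes were recomputed under the alternative settings, which gave 1090 values. Of these, 1037 kept the direction and the side of the threshold, 25 no longer passed, 10 newly passed and 18 changed sign. Several settings, such as no variance trend or leaving out a library of a group not compared, cannot change the log2 fold change itself. Their values are counted here too. With median-ratio scaling, the counts of the 10 genes were 8 higher and 0 lower past both thresholds and 1 lower by adjusted p for group B vs. A (5, 1 and 2 as reported), and 8 higher and 2 lower by adjusted p and 0 lower past both for C vs. D (5, 4 and 3); of all genes tested, 25.9% were then higher and 25.5% lower past both thresholds in B vs. A and 42% higher and 46.8% lower by adjusted p in C vs. D. The listed genes gave 28 higher and 5 lower (B vs. A), 27 higher and 9 lower (C vs. D) and 2 lower (D vs. A). Of all genes tested, 25.9% were then higher and 27.2% lower past both thresholds in C vs. D, and 6.56% lower by adjusted p in D vs. A. With quantile normalization, 0 members were lower past both thresholds in either comparison with Cu/ES. The listed genes gave 11 lower (B vs. A) and 21 higher and 13 lower (C vs. D). Of all genes, 22.2% (B vs. A) and 23.1% (C vs. D) were then lower and 21.4% (C vs. D) higher. With TPM, 2 members were lower past both thresholds in B vs. A and 4 interaction terms below 0 passed, against 63.3% and 14.9% of all genes. With only the groups compared, 1 member rose in C vs. B, against 1762 of 10615 genes tested, and 5 listed genes fell in D vs. A, against 1441. The listed genes that fell in D vs. A were 5 with a pseudocount of 0.1, against 579 of 10615, and 2 with no filter, against 1268 of 24824. The log2 differences of the *Nfe2l2* to *Keap1* ratio were 0.87 (B vs. A) and 0.41 (C vs. D) with a pseudocount, against 1.061 and 0.54. With quantile normalization, chosen for the ratios after seeing the data, they were -0.072 and -0.35, with -0.51 for C vs. B (-0.68 as reported), and those of *Gclm* to *Gclc* were 2.39 (B vs. A) and 2.12 (C vs. D).

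Signs changed with median-ratio scaling for *Nfe2l2* (0.62 in B vs. A, 0.18 in C vs. D) and *Srxn1* (0.54 in C vs. D). With TPM they changed for *Nqo1* (-0.10) and *Srxn1* (-0.37) in B vs. A, *Slc7a11* in C vs. D (-0.052), *Osgin1* in C vs. B (0.047) and the *Txnrd1* interaction (0.035), and with quantile normalization for the *Keap1* interaction (-0.022). The cause was not tested. Leaving out 1 library gave -0.045 to 0.079 for *Srxn1* (B vs. A), -0.057 to 0.0069 for *Osgin1* (C vs. B), -0.16 to 0.19 for *Hmox1* (D vs. A) and -0.038 to 0.13 for the *Keap1* interaction. The count of members that rose in C vs. B was 1 to 3, and listed genes in D vs. A numbered 8 to 18 higher and 2 to 10 lower. Of the 10547 to 10689 genes then tested, 1693 to 2568 were higher in C vs. B. In D vs. A, 686 to 1431 of them were higher and 710 to 1603 lower. The replicate block changed no call of the 10 genes. With it 7 rose and 2 fell in B vs. A, against 2157 and 7668 of the 10615 genes tested. Same-numbered libraries correlated at 0.005 to 0.277 (C vs. B), 0.087 to 0.579 (D vs. A) and -0.171 to 0.11 (C vs. D). With the block, listed genes in D vs. A numbered 15 higher and 10 lower, against 14 and 8. Over all 10615 genes tested, the block gave 1231 higher and 1378 lower, against 1114 and 1225.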
